A study of Brassica napus with 18 samples.

Results

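In oilseed rape (Brassica napus), 307 of the 107233 gene models in the count table were silent in exactly 1 of 6 accessions and expressed in the other 5. A gene model was taken as silent when it had 3 counts or fewer summed over the 3 libraries of an accession, and as expressed when it reached 5 CPM (the count divided by the total count of the library, times 1e6) in each of the 15 libraries of the other 5 accessions. These genes were selected on the measured counts themselves, so their low level in 1 accession is a description and carries no test. Shoot apices of field-grown plants were sequenced as poly(A)-selected RNA, with 3 libraries for each of 6 accessions. By the labels, haplotype 1 of BnaC3.LFY, a copy of the floral regulator LEAFY, is found in R5044, R5159 and R5161. Haplotype 2 is found in R4168, R4210 and R4817. No treatment or plant age is given, and it is not stated if libraries stand for different plants, so p-values measure only the spread between these libraries, which may be technical.

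Oilseed rape is an allotetraploid that holds an A subgenome from a Brassica rapa ancestor and a C subgenome from a Brassica oleracea ancestor. Most genes therefore have a counterpart, called a homoeologue, on a chromosome of the other subgenome, and A01 matches C01, A02 matches C02 and A05 matches C05 along much of their length. Accessions of this species are known to differ in gene content, and segments can be exchanged between homoeologous chromosomes, so that copies of one subgenome replace those of the other. A count near 0 does not tell a gene that is missing from an accession from one whose reads did not align to the reference or one that was not transcribed, and this was not tested. In bulk tissue, fewer cells of a type and less RNA per cell cannot be told apart either. The identifiers in the count table carry a chromosome and a running gene number, and none of them matched the 123214 entries of the RefSeq gene table for the Da-Ae assembly (0 matches). Gene names, functions, sequences and marker genes of the shoot apex were therefore not used here, and positions are gene numbers along a chromosome.

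Library totals ranged from 21960992 to 41459636 counts. A sum of 3 counts corresponded to between 0.0277 CPM in R5161 and 0.0439 CPM in R4817, the accession with the lowest depth. No 2 libraries held identical counts, and libraries of an accession differed by far more than sampling noise, with a chi-square per degree of freedom of at least 5.17.

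Silent genes were very unevenly spread over the accessions. R5044 had 84 of them, 0.47% of the 17883 gene models that reached 5 CPM in all 15 other libraries and could have been counted. R4168 had 82 (0.459% of 17866), R5159 had 59 (0.319% of 18493) and R4210 had 59 (0.326% of 18080). R5161 had 16 (0.0897% of 17841) and R4817 had 7 (0.039% of 17964). Over the 6 accessions this was 0.284% of the gene models that could have been counted. The 3 haplotype 1 accessions together had 159 silent genes and the 3 haplotype 2 accessions 148, so both haplotypes held accessions with many and with few. Of the 307 genes, 174 had 0 counts, 62 had 1 count, 45 had 2 counts and 26 had 3 counts in the silent accession. Just outside the limit, 56 further gene models had 4 to 6 counts. At the other limit, 39 members had a lowest value between 5 and 6 CPM in the 15 other libraries, and 74 gene models with 3 counts or fewer fell just short at 4 to 5 CPM.

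Where they were expressed, the silent genes had levels near those of other expressed genes. Their mean over the 15 other libraries ranged from 7.51 to 283.9 CPM, with a median of 21.2 CPM and quartiles of 14.7 and 36.1 CPM. The median per accession lay between 16.2 CPM in R5161 and 29.0 CPM in R5159, against 23.3 to 24.1 CPM over all gene models that passed the same floor.

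The A and C subgenomes held similar numbers in total, while the split differed in the 4 accessions with the most silent genes. Of the 307 genes, 158 lay on A chromosomes and 149 on C chromosomes, which is 51.5% on A, against 47.9% of the gene models that could have been counted. In R5159, 49 of 59 silent genes were on A chromosomes, and in R4168 62 of 82. In R4210, 53 of 59 were on C chromosomes, and in R5044 54 of 84. R5161 had 9 on A and 7 on C chromosomes, and R4817 had 2 and 5. The splits were not tested. Genes on A01, A05, A09, C02 and C05 made up 83.1% of the silent genes (255 of 307), against 24.4% of the gene models that could have been counted. These 5 chromosomes were picked after the counts were seen.

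**Figure D1:**
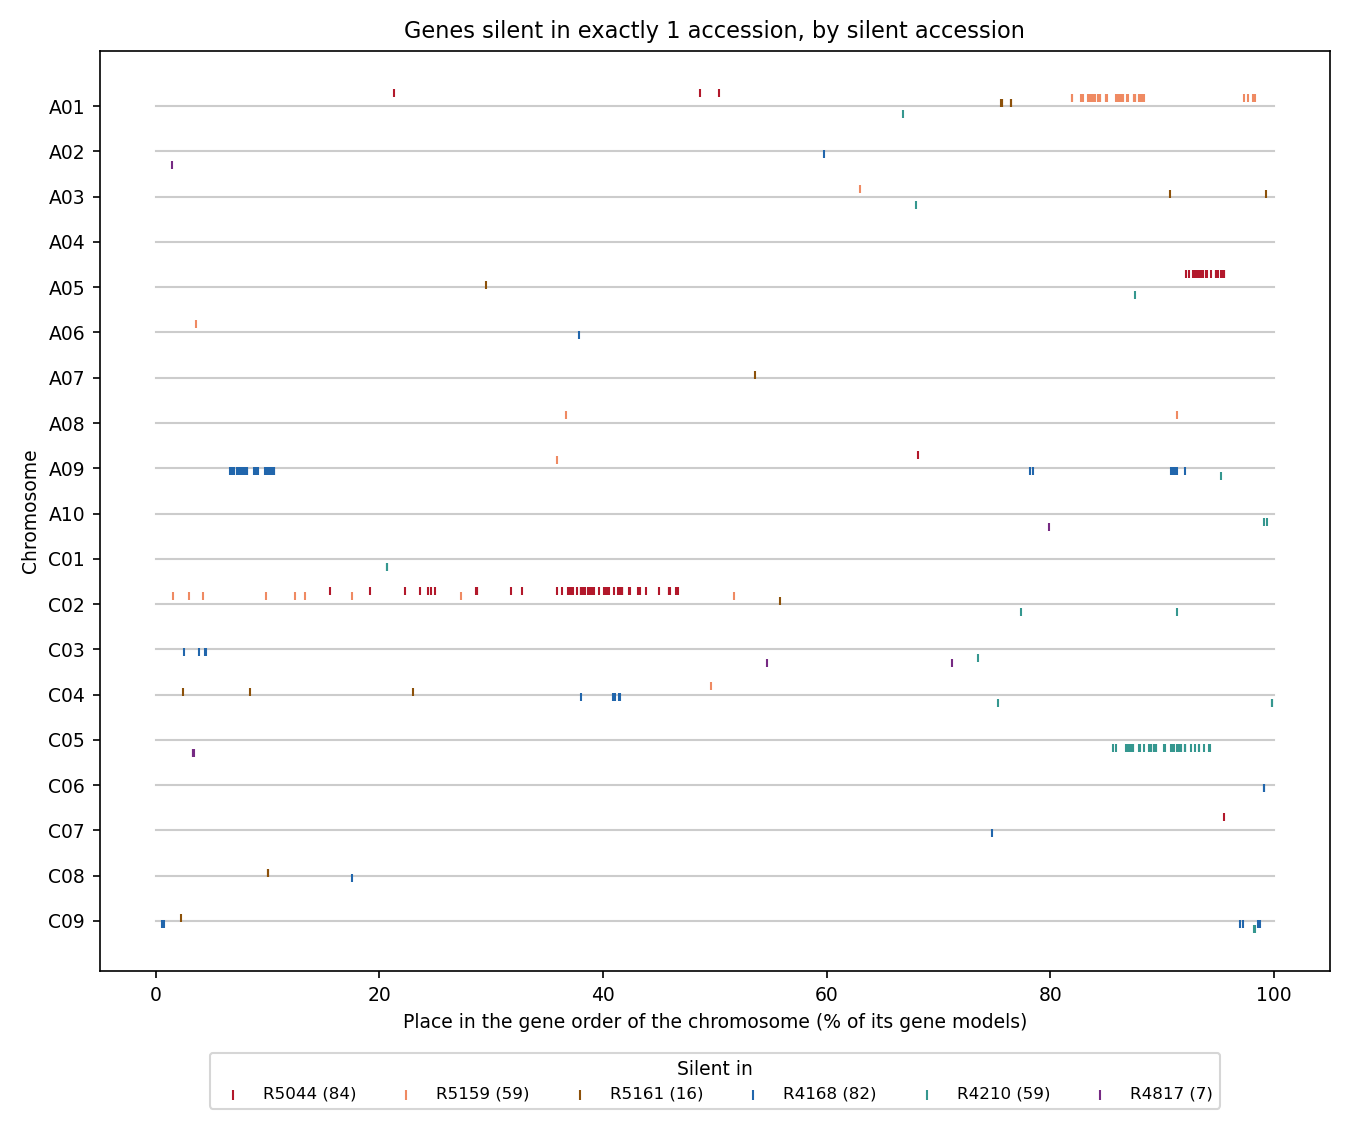
Each tick is a gene silent in exactly 1 accession, placed by chromosome (rows) and by its rank in the gene order of that chromosome (horizontal axis, percent of gene models), with colour and height within a row giving the silent accession. Ticks pile up on A01 for R5159, A05 and C02 for R5044, A09 for R4168 and C05 for R4210, while the 7 genes of R4817 lie on 4 chromosomes.

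Most silent genes stood in runs. When members of an accession that followed each other within 50 gene numbers were joined, 213 of 307 (69.4%) fell into 8 long runs of 5 or more genes. Another 42 were in 16 short runs of 2 to 4, and 52 stood alone. R5044 had 67 of its 84 genes in long runs, R4168 58 of 82, R4210 43 of 59, R5159 40 of 59 and R5161 5 of 16, and R4817 had 0 of 7.

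Gene models beside the silent ones were not used to choose them, and they were low in the same accession. The level in the silent accession over the mean of the other 5 was fitted for all 58143 tested gene models with edgeR's quasi-likelihood test. For each silent gene, the median log2 fold change of the 5 nearest tested gene models on each side was taken, leaving out all silent genes. It was -1 or lower, a low neighbourhood, for 272 of 307 silent genes (88.6%). The same was true of 2.0% of the other gene models that could have been counted, with values between 0.685% in R4817 and 2.72% in R5044. All 213 genes of the long runs had such neighbours, with medians between -9.93 and -1.42. Of the 94 genes outside long runs, 59 had low neighbours and 35 did not.

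**Figure D2:**
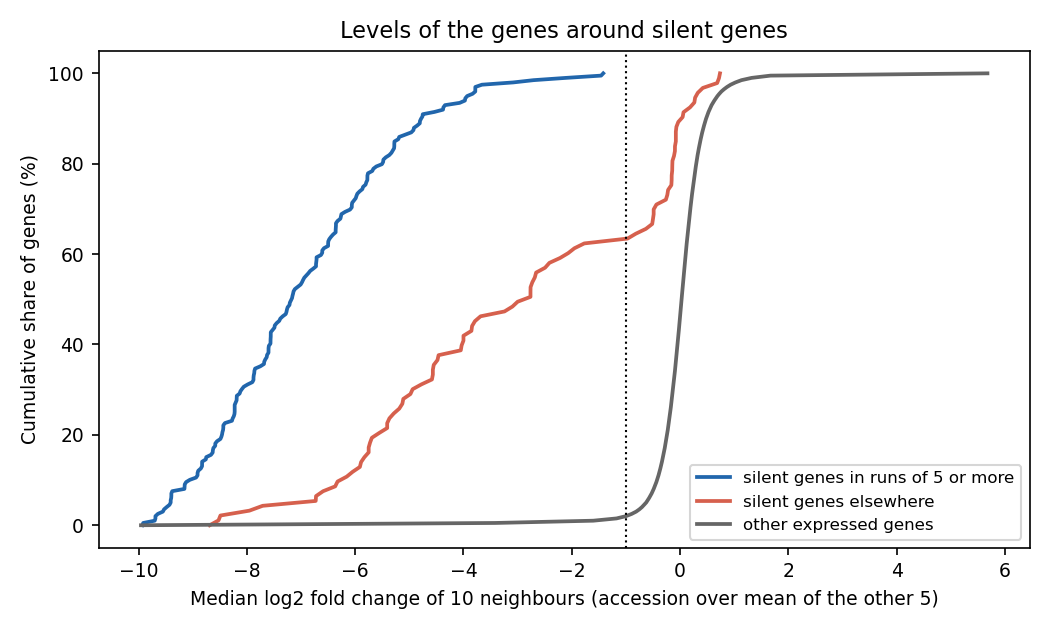
Cumulative share of genes (vertical axis, percent) by the median log2 fold change of their 10 nearest tested neighbours in the silent accession over the mean of the other 5 (horizontal axis), for silent genes in long runs (blue), silent genes elsewhere (red) and other expressed genes (grey). The dotted line marks -1, to the left of which lie all 213 genes of the long runs, 59 of the 94 others and 2.0% of the other expressed genes.

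Counted as calls at a Benjamini-Hochberg adjusted p under 0.05 in edgeR, 678 of 809 gene models that flanked the long runs or lay between their silent genes were lower in the silent accession (83.8%). Over all tested gene models the share was 15.7%. At a fold of 4 or more it was 649 of 809 (80.2%), against 4.34% over all. Only 6 of the 809 were higher (0.742%, against 24.6% over all). Beside silent genes outside the long runs, 406 of 800 flanking gene models were lower (50.8%) and 320 of 800 by 4-fold or more (40.0%). The 6 comparisons share their libraries, since each accession also stands among the other 5 of every other comparison.

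**Figure D3:**
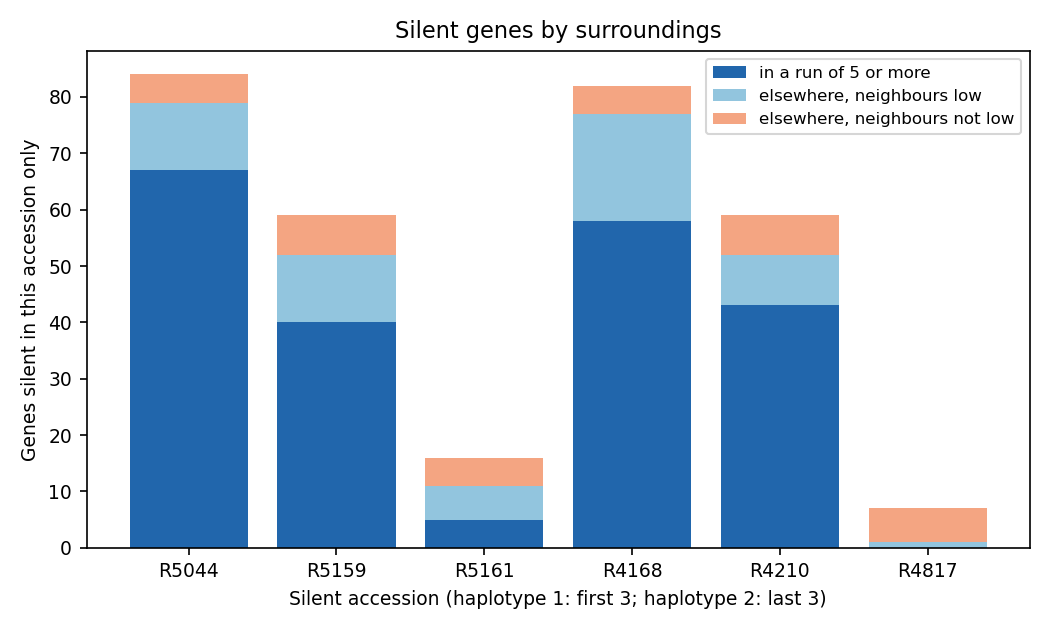
Number of genes silent in each accession only (bar height), split into genes in long runs (dark blue), genes elsewhere with low neighbours (light blue) and genes elsewhere without low neighbours (orange). The orange part is similar in all accessions, from 5 to 7 genes, while the dark part ranges from 0 in R4817 to 67 in R5044.

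In R5044, silent genes lay mainly on C02 and near the end of A05. The largest run on C02 had 35 silent genes between gene numbers 1995 and 2444, within a region low in R5044 from gene 1 to 2700. In the 3 libraries of R5044, the 427 other gene models of the run summed to 188.9, 285.1 and 229.2 CPM, against accession means between 2273 CPM in R4210 and 2663 CPM in R5159. No library of another accession came near the R5044 values. Of the 201 other tested gene models in the run, 160 were lower in R5044 (13.5% of all tested gene models were), 152 of them by 4-fold or more (4.88% of all), and 0 were higher (20.2% of all). A second C02 run of 6 genes lay between gene numbers 2511 and 2608. Its 98 other gene models summed to 34.2, 37.2 and 38.3 CPM in R5044, against 177.3 ± 4.96 in R5161, 381.3 ± 103 in R5159, 1049 ± 69.5 in R4210, 1668 ± 904 in R4817 and 2301 ± 64.6 in R4168 (SD, n = 3 libraries). R5044 was below every other library, but R5161 and R5159 were also below all libraries of the haplotype 2 accessions, and the R4817 libraries spanned 832.4 to 2627 CPM. Of 39 other tested gene models in this run, 27 were lower in R5044 and 0 were higher. Of the 53 genes on C02 silent in R5044 alone, 51 lay between genes 1101 and 2700 and 1 in the first 1000 gene numbers. Parts of the low C02 region were not particular to R5044. Genes 80 and 968, silent in R5159 alone, had neighbours with median log2 fold changes of -6.32 and -7.71 in R5159. Between genes 1587 and 1594, the 5 other gene models summed to 0 CPM in R5044 and in R5159. They summed to 1.51 CPM in R5161, 2.59 in R4168, 9.35 in R4817 and 16.3 in R4210.

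The A05 run of R5044 had 26 silent genes between gene numbers 4609 and 4775. Its 159 other gene models summed to 32.7, 33.6 and 32.0 CPM in R5044, against 630.6 ± 29.1 in R5159, 665.2 ± 17.7 in R5161, 766.3 ± 51.0 in R4168, 1317 ± 19.2 in R4210 and 744.5 ± 111 in R4817 (mean and SD, n = 3 libraries). R5044 was far below all others, and R4210 stood above them. Of 88 other tested gene models, 74 were lower in R5044 and 0 were higher. The 10 tested gene models before the run had a median log2 fold change of -0.38, those inside it -7.42 and the 10 after it -2.05. The 13 gene models of the run that were expressed in all other accessions without being silent in R5044 had a median of 2.6% of the level in the other accessions.

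The most abundant silent genes of R5044 were BnaC02T0123100ZS and BnaA05T0473900ZS. BnaC02T0123100ZS, outside the long runs, had 0, 0 and 1 count in the R5044 libraries, against 66.7 to 461.1 CPM (median 138.5) in the other 15. Its lowest other value was in R4817 and its highest in R5161, so that the expressing accessions differed widely among themselves. Its pooled level was 20569-fold lower in R5044, with a 95% counting interval from 3692 to 812436. BnaA05T0473900ZS, in the A05 run, had 0, 3 and 0 counts, against 62.7 to 210.6 CPM (median 132.7), and was 4552-fold lower (1558 to 22074). These intervals are exact binomial ones and cover counting error only. The genes were chosen on these same counts, so folds and intervals, here and for the other accessions, are descriptions and carry no test. Both genes lay in low neighbourhoods, with medians of -3.68 and -8.83.

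In R5159, silent genes lay mainly on A01. The run had 40 silent genes between gene numbers 3537 and 3799, which is 61.5% of its 65 gene models that could have been counted. Its 256 other gene models summed to 105.2, 81.4 and 92.6 CPM in R5159, against means between 1487 ± 31.0 in R4168 and 2879 ± 308 in R4210 (SD, n = 3 libraries). Of 130 other tested gene models, 114 were lower in R5159 (16.7% of all tested gene models were), 111 of them by 4-fold or more (5.69% of all), and 0 were higher (25% of all). The low level ended close to the last silent gene: the next 10 tested gene models had a median log2 fold change of -0.53, against -7.66 inside. A short run of 4 genes followed at gene numbers 4185 to 4226, where all 24 other tested gene models were lower. On C02, 9 genes were silent in R5159 alone, 7 of them within the first 1000 gene numbers.

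BnaC02T0008000ZS and BnaA01T0376200ZS were the most abundant silent genes of R5159. BnaC02T0008000ZS had 0, 0 and 1 count in R5159, against 31.5 to 534.8 CPM (median 154.0) in the other libraries. The lowest of these were those of R5044, with a mean of 37.4 ± 5.23 CPM, and the highest those of R4210, with 505.9 ± 32.8 CPM (SD, n = 3). BnaA01T0376200ZS, in the A01 run, had 0, 0 and 1 count, against 104.7 to 238.9 CPM (median 187.4). The pooled levels in R5159 were 16604-fold lower (2980 to 655830) and 14626-fold lower (2625 to 577708).

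R5161 had 1 long run, also on A01 but earlier, at gene numbers 3270 to 3309 with 5 silent genes. Its 38 other gene models summed to 16.4, 18.1 and 18.5 CPM in R5161, against means between 706.2 ± 62.6 in R4210 and 1137 ± 23.9 in R5044 (SD, n = 3 libraries). Of 22 other tested gene models, 19 were lower in R5161 (17.8% of all tested gene models were) and 1 was higher (24.6% of all). The level was low before the run as well, with a median log2 fold change of -7.46 over the 10 preceding gene models, and was back at -0.29 after it. The most abundant silent genes were BnaC09T0013700ZS, with 1, 2 and 0 counts in R5161 against 11.1 to 113.0 CPM (median 38.2), and BnaA01T0327000ZS, with 0 counts in all 3 libraries against 24.1 to 46.4 CPM (median 37.1). The first was 1626-fold lower in R5161 (556.4 to 7886). The second was at least 1335-fold lower, taking 3 counts over the group as the limit that a count of 0 allows.

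In R4168, 60 of 82 silent genes were on A09, 58 of them in a long run near its start and another near its end, and 2 in a short run at gene numbers 5652 and 5671. The first had 49 silent genes between gene numbers 476 and 758, or 71.0% of the 69 gene models that could have been counted. Its 250 other gene models summed to 354.1, 883.9 and 928.6 CPM in R4168, against means between 1609 ± 90.3 in R4817 and 3878 ± 427 in R5044 (SD, n = 3 libraries). The first R4168 library stood below the other 2, and all 3 lay below every library of the other accessions. Of 150 other tested gene models, 131 were lower in R4168 (13.4% of all tested gene models were), 126 by 4-fold or more (3.1% of all), and 3 were higher (23.2% of all). The low level began before the first silent gene, with a median log2 fold change of -6.16 over the 10 preceding gene models, and ended at the last, with 0.24 after it. The second run had 9 silent genes between gene numbers 6560 and 6647, where 39 of 49 other tested gene models were lower and 1 was higher.

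Short runs of R4168 lay on A09, C03, C04, C06 and C09. The 4 genes on C04, numbered 2496 to 2533, included a pair of neighbours, 2532 and 2533, with 0 and 2 counts in R4168 against medians of 83.1 and 112.0 CPM in the other libraries. Of 12 other tested gene models in that run, 11 were lower in R4168, while the 10 gene models on either side had medians of -0.64 and -0.26. The most abundant silent gene of the whole set was BnaC09T0003800ZS, with 0, 1 and 0 counts in R4168 against 97.5 to 673.4 CPM (median 245.0), 23396-fold lower in R4168 (4199 to 924090). BnaA09T0664700ZS, the last gene of the second A09 run, had 0, 0 and 1 count against 102.5 to 333.1 CPM (median 226.6), 19873-fold lower (3567 to 784960).

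In R4210, 43 of 59 silent genes formed the run with the widest span (532 gene models), on C05 between gene numbers 4936 and 5430. They were 30.1% of the 143 gene models there that could have been counted. The other 100 had a median of 5.37% of the level in the other accessions, and 2 of them exceeded 50%. The 489 gene models outside the silent list summed to 735.5, 690.2 and 766.1 CPM in R4210, against 7722 ± 167 in R5044, 6110 ± 37.7 in R5159, 5905 ± 218 in R5161, 4888 ± 279 in R4168 and 5026 ± 9.64 in R4817 (SD, n = 3 libraries). R4210 was far below the rest, and R5044 had the highest sums. Of 267 other tested gene models, 238 were lower in R4210 (19.7% of all tested gene models were), 225 by 4-fold or more (4.79% of all), and 6 were higher (27.7% of all). Its most abundant silent genes were both in this run. BnaC05T0542900ZS had 1, 1 and 0 counts in R4210 against 59.3 to 192.9 CPM (median 139.3), and BnaC05T0523400ZS had 0, 0 and 2 counts against 44.2 to 163.0 CPM (median 94.2).

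**Figure D4:**
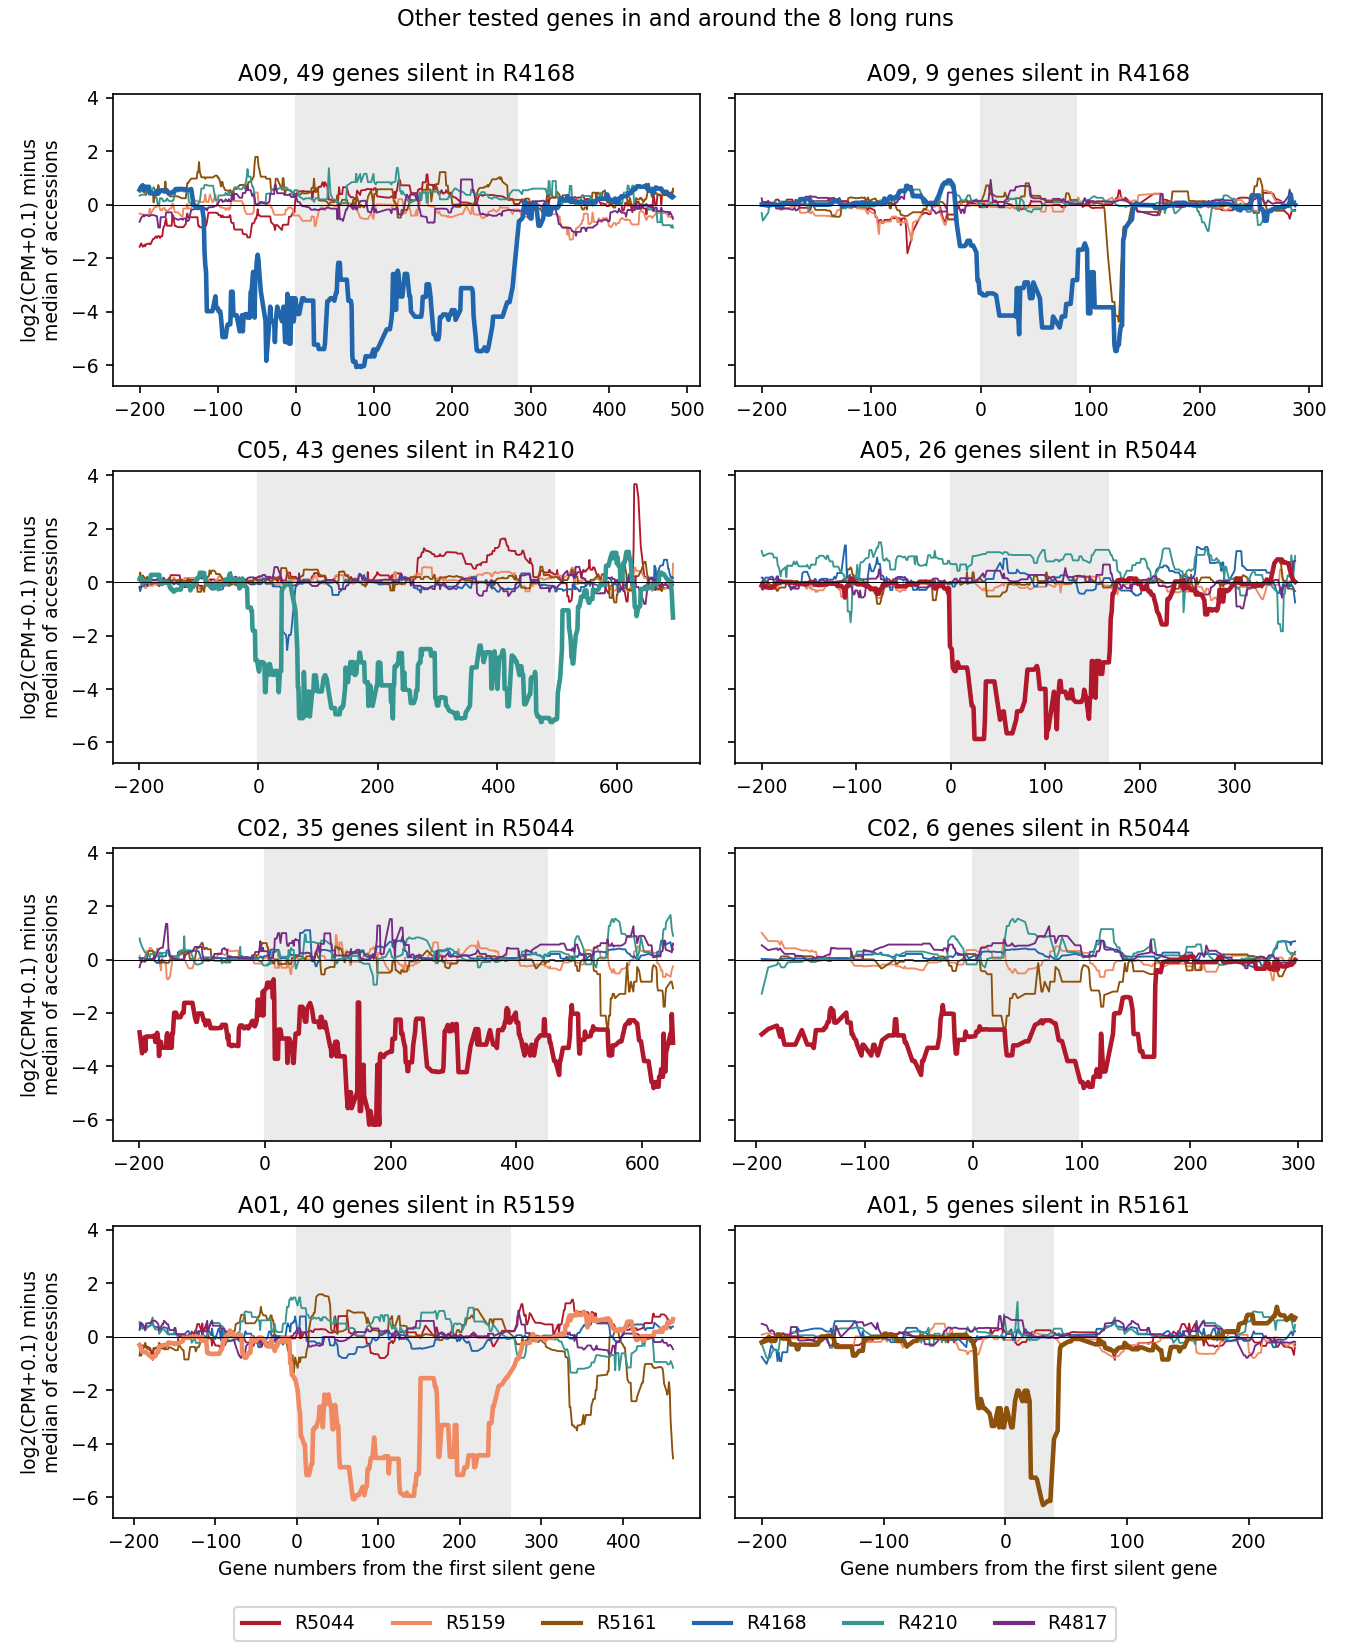
Running median over 11 tested gene models outside the silent list (vertical axis, log2(CPM + 0.1) minus the median of the 6 accessions) against the gene numbers from the first silent gene (horizontal axis), for the 8 long runs (grey band), with the silent accession as a thick line and the other accessions as thin lines. The thick line lies below the thin lines over most of each band, and outside the larger C02 run of R5044 it comes back to about 0 on the right within 200 gene numbers of the band.

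R4817 differed from the other accessions in having no long run. Its 7 silent genes all had 0 counts, and 6 of the 7 lay outside low neighbourhoods. The 3 genes at numbers 196, 198 and 199 of C05 were the only gene models of that stretch with 5 CPM or more in the other accessions. They had 0 counts in R4817, against medians of 12.3, 15.8 and 15.6 CPM in the other 15 libraries. The 10 tested gene models before and after them had medians of 0.09 and -0.36. BnaA10T0242300ZS had 0 counts against 38.2 to 62.9 CPM (median 45.7), at least 1079-fold lower in R4817, and BnaC03T0581700ZS had 0 counts against 5.93 to 45.4 CPM (median 23.8), at least 574-fold lower.

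The 35 silent genes without low neighbours were found in all 6 accessions, from 5 to 7 in each, and on 15 chromosomes. There were 18 on A and 17 on C chromosomes, and 30 of the 35 stood alone. Of these 35, 25 had 0 counts (71.4%), against 149 of the 272 with low neighbours (54.8%). Their median level in the expressing accessions was 14.6 CPM, against 22.7 CPM for those with low neighbours. Of their 320 flanking gene models, 73 were lower in the silent accession (22.8%, against 15.7% over all tested gene models), and 70 were higher (21.9%, against 24.6%). The levels of these flanking gene models also defined the group, so shares near those over all follow in part from the choice.

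Opposite each long run, the homoeologous chromosome was examined in windows of 100 gene numbers. The segment around the window with the highest median log2 fold change in the silent accession was taken, so that a high value there follows from the choice and is given as a description. Gene pairs were not matched between subgenomes, and how the counting treated reads shared by both copies is unknown here.

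A05 and C05 gave mirrored values in R5044 and R4210. In R5044, where the end of A05 was silent, C05 genes 4901 to 5500 summed to 8294 ± 158 CPM, against 6720 ± 22.5 in R5159, 6532 ± 191 in R5161, 5425 ± 289 in R4168 and 5645 ± 111 in R4817 (SD, n = 3 libraries). R4210, where these C05 genes were low, had 987.7 ± 24.3 CPM. In R4210, A05 genes 4401 to 4900 summed to 8538 ± 175 CPM, against 4931 ± 163 in R5159, 5000 ± 156 in R5161, 5257 ± 308 in R4168, 4285 ± 749 in R4817 and 4171 ± 58.5 in R5044. All 3 R5044 libraries were above, and all 3 R4210 libraries below, every library of the other 4 accessions on C05. On A05 all R4210 libraries were above every other library, while R5044, with the lowest mean, overlapped R4817, whose libraries ran from 3544 to 5041 CPM. Each segment was chosen for its high values in R5044 or R4210 and holds the run of the other accession. Both ends of these orders therefore follow in part from the choice.

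On the other chromosomes the silent accession also had the highest sum in the segment chosen for its run. R5159, silent on A01, had 9384 ± 169 CPM over C01 genes 4401 to 5000, against 2746 ± 738 in R4210 to 5130 ± 82.9 in R5044. R5161, silent earlier on A01, had 3200 ± 244 CPM over C01 genes 4001 to 4100, against 1159 ± 58.0 to 1798 ± 94.4. R5044, silent on C02, had 18243 ± 2615 CPM over A02 genes 801 to 2000, against 10347 ± 248 to 12684 ± 87.6. R4168, silent at the start of A09, had 15778 ± 2455 CPM over C09 genes 201 to 700. There the other accessions were themselves split, with 6756 ± 354 in R5159, 6399 ± 635 in R4817, 2034 ± 537 in R5044, 676.9 ± 25.7 in R5161 and 626.3 ± 36.4 in R4210. For the end of A09, parts of which also share ancestry with C08, R4168 had 5928 ± 506 CPM over C08 genes 5101 to 5400, against 2810 ± 111 to 3731 ± 203. For this run C08 was taken in place of C09, which was not planned beforehand, and no C09 segment is given for it.

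Some accessions, silent ones among them, varied between their own libraries in these segments. R5044 had 15580, 20807 and 18342 CPM in its libraries over the A02 segment, and R4168 had 12951, 17383 and 16999 CPM over the C09 segment. Over that C09 segment R5044, R5159, R4210 and R4817 were also lowest in library 1 and highest in library 2. R5161 was lowest in library 1 and highest in library 3. Over the A01 run of R5159, R4817 had 1380, 2019 and 1737 CPM in its libraries 1, 2 and 3. Over the C01 segment chosen for that run it had 6060, 3025 and 4514 CPM. Its library with the lowest A01 sum had the highest C01 sum. R4210 had 2561, 3175 and 2901 CPM over the A01 run and 3405, 1949 and 2884 CPM over the C01 segment, in the same opposite order. Among the expressing accessions, R4817, R4210 and R5044 shared the order of libraries 1, 2 and 3 on both chromosomes. R4168 and R5161 had other orders on A01. The part of this variation in the results was not tested.

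**Figure D5:**
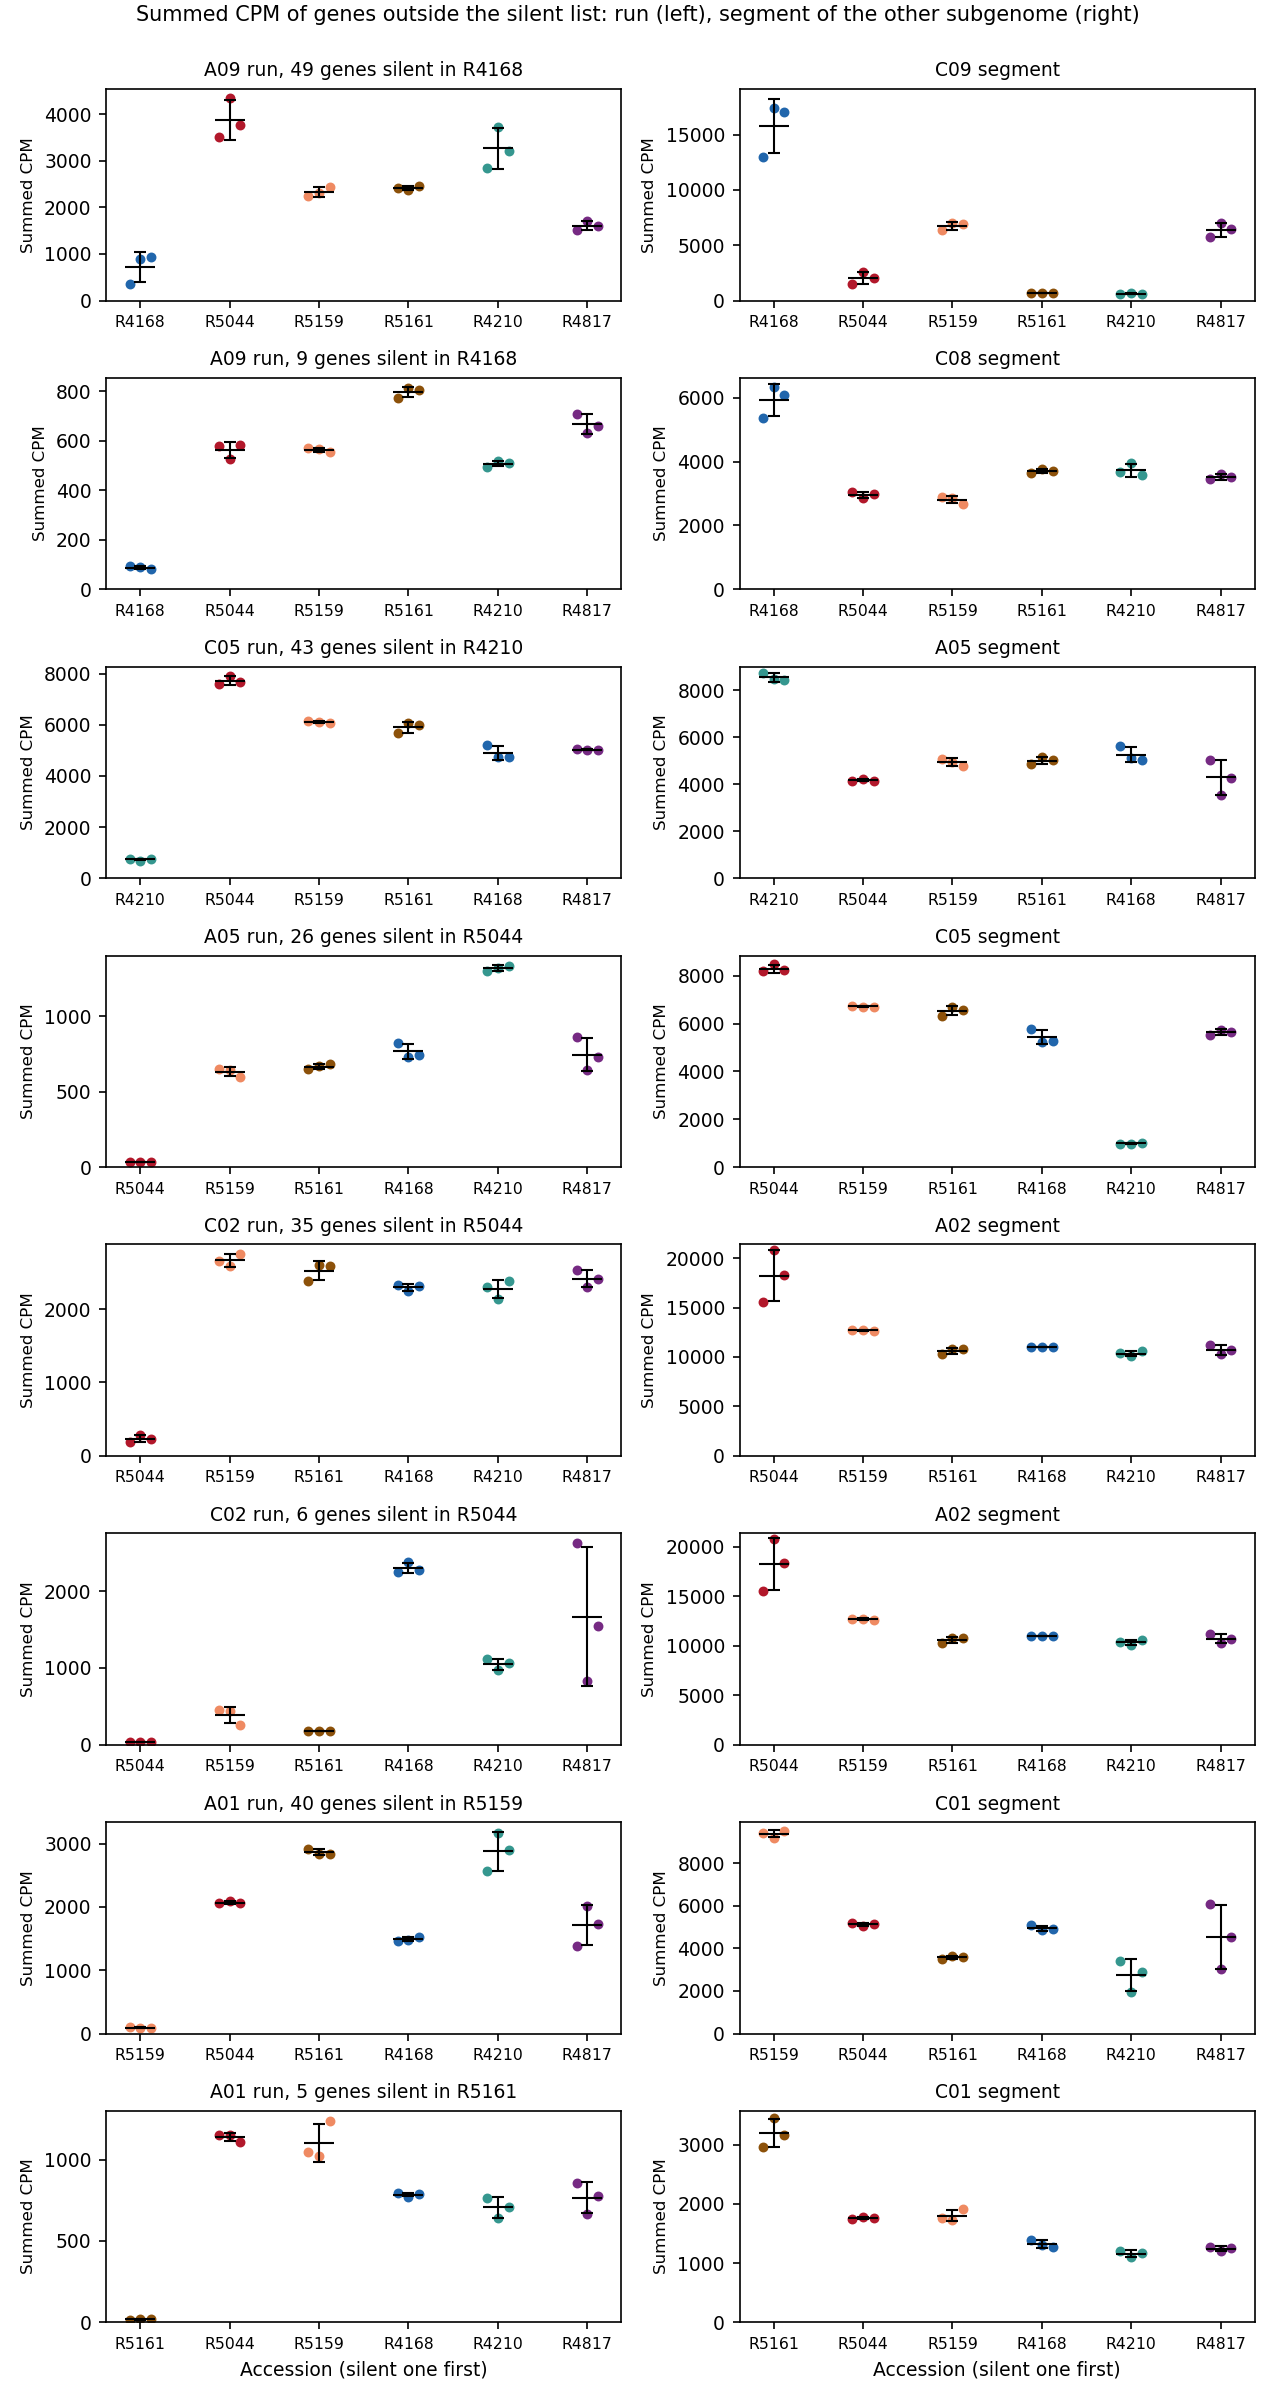
Summed CPM of gene models outside the silent list (vertical axis, from 0) in each library (points) with the mean and SD of 3 libraries (bars) for each accession, over the 8 long runs (left) and the segment chosen on the other subgenome (right), which is the same A02 segment for both C02 runs. In each row the silent accession, drawn first, is the lowest on the left and the highest on the right, for example 32.0 to 33.6 CPM on A05 and 8294 ± 158 CPM on C05 in R5044.

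Among the 5 accessions that expressed them, silent genes differed between haplotypes about as often as other genes. The contrast of haplotype 1 with haplotype 2, leaving out the silent accession, was not used to choose the genes beyond the common floor of 5 CPM. It passed an edgeR adjusted p of 0.05 for 194 of 307 silent genes (63.2%), against 63.6% of the gene models with the same floor. Of these, 118 were higher and 76 lower in haplotype 1 (38.4% and 24.8% of 307), against 38.7% and 24.9%. The split by direction is given for each silent accession beside that of all gene models with the same floor. Of the genes silent in R4168, 40 were higher and 15 lower with haplotype 1 (48.8% and 18.3%, against 40.1% and 24.9%). Of those silent in R4210, 33 were higher and 5 lower (55.9% and 8.47%, against 38.3% and 23.6%). Among genes silent in R5044, 24 were higher and 30 lower (28.6% and 35.7%, against 39.5% and 25.4%). For R5159 the numbers were 13 and 19 (22.03% and 32.2%, against 36.9% and 25.6%). For R5161 they were 5 and 5 (31.2% each, against 38.5% and 24.9%), and for R4817 3 and 2 (42.9% and 28.6%, against 39.1% and 25%). Many members are neighbours in a run and are not independent of each other. Whether these splits differ between accessions was not tested. The ratio of the highest to the lowest mean among the 5 expressing accessions had a median of 2.52 for genes silent in R4168, 2.36 in R5159 and 2.21 in R5044, against 1.77 to 1.79 for other expressed genes of these contrasts. It was 1.81 in R4210, 1.73 in R4817 and 1.63 in R5161.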

How the data were processed

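Poly(A)-selected RNA from shoot apices was sequenced in 18 libraries, 3 for each of 6 accessions. The authors deposited 1 table of raw, whole-number counts per gene model, not normalized. Per the submitters' processing notes, HISAT2 2.2.1 and featureCounts were used. Settings, genome build, gene models, strandedness and multi-mapping rules: not given in the sources used here. Counts of homoeologues and other near-identical copies may share reads, which can raise or lower a residual level in a silent accession. Table columns were tied to samples through their titles.

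Silent genes were found by the rule given above. The rule, the lists and the tests were chosen with earlier results of these data known. The model was edgeR 4.0.16 under R 4.3.3 (quasi-likelihood test, TMM, filterByExpr by accession, 1 coefficient per accession, 18 libraries, adjusted p over all 58143 tested gene models). All 307 silent genes passed that filter on low counts. Each accession was set against the mean of the other 5, and log2 fold changes are the silent accession over that mean. Where counts are near 0, in the silent accession or in another, the fitted log2 fold change depends on the prior count. Strongly negative values are therefore not exact folds. Windows of 100 gene numbers needed 15 tested gene models, silent genes were left out, and windows at 0.5 or higher were joined across at most 1 gap. DESeq2 1.42.0, another normalization, no filter, a replicate block, other limits and leaving out each library were tried as alternatives. The identifiers named are, in each accession, the 2 silent genes with the highest mean over the other 15 libraries. The tests were also run on simulated data, which took their spread between libraries from the fit to the real counts. The simulation gave every gene the same spread, and accessions differed only where a change was planted. Decreases were planted in R5044, in genes above a floor on the mean level. In the R5044 comparison, 29% of planted 2-fold decreases and 99% of 4-fold decreases were called, and 0.03% of unchanged genes. These rates may not hold for the real comparisons. Of 20 single silent genes planted, 17 were found. Summaries used Python 3.11.15 with pandas 2.3.3, numpy 2.4.6 and scipy 1.17.1.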

Additional observations from a re-analysis of the deposited data

How the results depend on the processing

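The count of 307 silent genes depended on the limits of its rule. It was 174 with 0 counts, 825 with a floor of 1 CPM and 163 with a floor of 10 CPM, and stayed within 1.5 times in the other 23 alternatives, with 311 to 341 when 1 library was left out, 242 without C02, an alternative chosen after seeing the data, and 408 with 10 counts or fewer. Without C02, R5044 had 31 silent genes in place of 84. R5161, with 16, had 10 with 0 counts, 29 with 10 counts or fewer and 24 without its replicate 3, and at 10 counts or fewer no other accession moved by over 1.5 times. The 272 silent genes in a low neighbourhood ranged from 268 to 277 over 27 alternatives (272 to 273 with 1 library left out), and the flanking gene models lower in the silent accession numbered 912 to 1565 against 1084 (outside long runs 691 with 10 neighbours on each side, against 406 with 5, since more gene models are counted), with 1036 to 1068 when 1 library was left out. Calls between haplotypes among silent genes ranged from 180 to 205 against 194, with 180 to 200 when 1 library was left out. On the segments chosen on homoeologous chromosomes, the median log2 fold change and the log2 ratio of summed CPM to the mean of the others kept their sign. They were 3.83 and 2.26 for C09 in R4168, 1.17 and 0.85 for A05 in R4210, 1.46 and 0.71 for C05 in R5044, 1.85 and 1.16 for C01 in R5159, and 0.73 and 1.13 for C01 in R5161. RLE normalization gave 1.20 for A05 in R4210 and 1.43 for C05 in R5044. The cause of these differences was not tested. Libraries of different accessions share replicate numbers. Only 2 of 45 same-numbered pairs had deviations correlated above 0.1, and 7 of 18 libraries correlated best with their own number. The numbers were therefore not taken as pairs, although most accessions shared the order of their libraries over the C09 segment. With a replicate block the counts were 272, 1077 and 192.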

Other observations

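Some gene models were silent in several accessions. With the same limits, 72 gene models were silent in exactly 2 accessions and expressed in the other 4. Of these, 61 were silent in a pair of the same haplotype, although only 6 of the 15 possible pairs are of that kind, and 11 in a pair from both haplotypes. R5044 and R5159 shared 24 such genes, R4168 and R4210 shared 21, R5044 and R5161 shared 8, and no other pair had more than 3. Another 72 were silent in exactly 3 accessions, 42 of them in R5044, R5159 and R5161, the haplotype 1 accessions, and 9 in R4168, R4210 and R4817, the haplotype 2 accessions. The reverse of the genes described above, expressed in 1 accession and silent in the other 5, were 44 in number. No test was run on these counts.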
